A study of Homo sapiens with 9 samples.

Results

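Checkpoint and adenosine ligands are surface proteins through which a tumour cell restrains or, for some of them, activates the immune cells that touch it. The 10 genes described here were chosen by name: CD274, PDCD1LG2, CD276, NT5E, PVR, NECTIN2, CD47, ULBP2, MICA and MICB. Each matched 1 Ensembl gene row, giving 10 rows of the 62257 in the deposited tables. They were followed in A549, an established line of human lung adenocarcinoma cells, by RNA sequencing in 9 libraries, 3 in each of 3 groups. The control group received phosphate-buffered saline. The DDP_apoEV group received apoptotic extracellular vesicles, the membrane particles released by dying cells, from apoptosis induced by cisplatin, and the STS_apoEV group received vesicles from apoptosis induced by staurosporine. All groups were harvested after 96 h. The labels do not name the cells that shed the vesicles, and groups given either drug without vesicles were not analysed here. All libraries come from 1 cell line, and the values are RNA levels, not surface protein. Nothing in the labels says that libraries of a group were separate cultures, so the p-values reflect no more than the variation among these libraries, which could be technical.

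The members act through different receptors. PD-L1 (CD274) and PD-L2 (PDCD1LG2) engage PD-1 on T cells and restrain them, and B7-H3 (CD276) is a related B7-family protein. The nectin-like protein PVR and nectin-2 (NECTIN2) bind both the activating receptor CD226 and inhibitory receptors such as TIGIT. CD47 binds SIRPA on macrophages and restrains engulfment. ULBP2, MICA and MICB are stress-induced ligands of the activating receptor NKG2D on natural killer and T cells. CD73, the product of NT5E, makes extracellular adenosine from AMP, and adenosine acts on receptors that dampen immune cells.

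The control libraries held 14356195 to 15492993 counts, the DDP_apoEV libraries 15949255 to 16526399 and the STS_apoEV libraries 13799950 to 14816996. The 6 epithelial markers EPCAM, KRT8, KRT18, KRT7, CDH1 and CLDN4 summed to between 11086 and 12246 CPM (counts scaled to a common library size, TMM-adjusted) in control, 6921 and 7465 in DDP_apoEV and 7291 and 8584 in STS_apoEV. The keratins carried this sum, with KRT8 at a control mean of 6476 CPM against 3.58 for EPCAM and 5.59 for CLDN4. With DDP_apoEV KRT8, KRT18 and CDH1 fell and 3 were not called, and with STS_apoEV 5 fell and CLDN4 rose, to 10.1 CPM (adjusted p = 0.000321). The part of these genes in the results below was not tested. The 7 alveolar markers SFTPC, SFTPB, SFTPA1, SFTPA2, NAPSA, NKX2-1 and AGER summed to at most 2.56 CPM, with SFTPA1 at 0 in all libraries. Apart from AGER, the defining alveolar genes were thus nearly absent. AGER starts 0.781 Mb from MICA, among the nearly empty neighbours described below, so its count is taken as no measure of expression. NAPSA alone passed the filter on low counts, and was higher with STS_apoEV than with DDP_apoEV by 1.57 on the log2 scale. Markers of immune cells summed to between 9.58 and 13.9 CPM in the control libraries, 12.6 and 13.2 in DDP_apoEV and 15.9 and 21.9 in STS_apoEV. CD14 held most of that sum, at a mean of 16.4 CPM in STS_apoEV against 9.26 in control. CD2 and MS4A1 were at 0 in all libraries, and PTPRC, carried by nearly all blood leukocytes, averaged 0.0701 CPM in STS_apoEV and 0 elsewhere. Of the 12 immune markers 3 were tested, and edgeR called CD14 and NKG7 higher with STS_apoEV than with either other group, but not CD8A. DESeq2 did not call NKG7 against control (log2 fold change 1.46, adjusted p = 0.0848). The part of these genes in the results was not tested. Markers of fibroblasts and endothelium summed to between 3.75 and 5.01 CPM in control, 3.05 and 3.68 in DDP_apoEV and 5.07 and 8.09 in STS_apoEV. The endothelial adhesion gene PECAM1 rose with STS_apoEV from 0.160 to 2.51 CPM (adjusted p = 1.08e-06), and its part in the results was not tested either. Of 10 listed immune receptors, not all of which bind these ligands, PDCD1 and CTLA4 were at 0 in all libraries. CD226, PVRIG and LAG3 passed the filter on low counts, with CD226 at 1.13 CPM in control, 1.24 in DDP_apoEV and 1.16 in STS_apoEV. The list of 10 receptors summed to between 3.84 and 7.52 CPM. In bulk RNA, fewer cells of a type and less RNA per cell cannot be told apart.

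Sequence from 3 start sites is shown because PVR fell and its paralog NECTIN2 rose with STS_apoEV, and because CD274 is the best known checkpoint ligand of the set. The 250 bases before the RefSeq start (GRCh38.p14) were searched on both strands, and the stretch before the first annotated exon is printed 5′ to 3′, with motif matches in capitals. CD274 is at chr9:5450292-5450502, PVR at chr19:44643660-44643797 and NECTIN2 at chr19:44846047-44846174, all on the plus strand.
CD274: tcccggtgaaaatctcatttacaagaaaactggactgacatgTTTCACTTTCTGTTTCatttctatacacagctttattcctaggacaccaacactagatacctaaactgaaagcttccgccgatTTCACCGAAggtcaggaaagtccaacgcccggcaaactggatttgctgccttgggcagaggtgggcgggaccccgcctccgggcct
PVR: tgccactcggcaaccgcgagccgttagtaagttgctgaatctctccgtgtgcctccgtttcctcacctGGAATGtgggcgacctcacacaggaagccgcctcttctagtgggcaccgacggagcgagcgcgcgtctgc
NECTIN2: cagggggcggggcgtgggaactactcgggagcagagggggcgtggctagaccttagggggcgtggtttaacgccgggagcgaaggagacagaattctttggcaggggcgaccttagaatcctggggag
The capitals in CD274 mark 2 overlapping matches to the interferon-stimulated response element core on the minus strand, read on the plus strand as TTTCACTTTC at −208 and TTTCTGTTTC at −202 from the RefSeq start, and 1 interferon-gamma activated site (GAS, TTCNNNGAA) at −125. The response element core occurs in 3.02% and the GAS in 6.57% of the 35116 RefSeq windows of the same length. In PVR the capitals mark the TEAD motif GGAATG, which occurs in 11.9% of the windows. NECTIN2 held no match to the NF-kB consensus, GAS, response element core, heat shock element core (GAANNTTC), AP-1 (TGANTCA), CRE (TGACGTCA), HIF core (ACGTG) or TEAD motifs. The SP1 box (GGGCGG, not capitalised), present in 42.6% of the windows, matched 3 times in NECTIN2, once in CD274 and not in PVR. In NECTIN2 the match at −246 lies in the printed stretch, and those at −78 and −54 lie past its end. MICA and MICB each held a heat shock element core with the letters GAATTTTC, a motif found in 5.78% of the windows. A match is a description of the letters and no site of binding was measured. In all, 9 of the 10 members had an entry in the sequence table.

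Levels between genes can be compared only per length, and the deposited FPKM (fragments scaled by gene length and library size) give that scale. In control, NT5E stood at 13.5 ± 1.38 FPKM (SD, n = 3) and PVR at 13.4 ± 1.16, and their libraries overlapped. CD47 at 8.88 ± 0.830 and NECTIN2 at 8.44 ± 1.04 came next and also overlapped. CD276 at 3.94 ± 0.281, ULBP2 at 2.45 ± 0.563 and CD274 at 0.203 ± 0.120 followed without overlap. In STS_apoEV the order differed, since NT5E reached 28.9 ± 2.16 FPKM while PVR, at 6.33 ± 0.911, overlapped CD276 at 6.79 ± 0.682 and lay below NECTIN2 at 10.2 ± 1.37. In DDP_apoEV NT5E stood at 25.9 ± 0.930, and CD47 at 11.5 ± 0.317 overlapped PVR at 11.03 ± 0.680. NT5E was thus level with PVR in control and above every other member, without overlap, in both vesicle groups.

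Of the 10 members 7 passed the filter on low counts and were tested, among 16947 genes. With edgeR's quasi-likelihood test and an adjusted p under 0.05 as the threshold for a call, 6 of the 7 differed among the 3 groups, against 45.1% of all genes tested. With DDP_apoEV 2 members rose and 1 fell, where 15.5% of all genes were called, 7.16% higher and 8.32% lower. With STS_apoEV 5 rose and 1 fell, where 32.8% of all genes were called, 15.9% higher and 16.8% lower. Between the vesicle types 2 were higher and 1 lower with STS_apoEV, where 39.7% of all genes were called, 20.2% higher and 19.5% lower, a share close to that of the members. Libraries of the groups compared did not overlap for 3 members with DDP_apoEV (2 higher, 1 lower), 5 with STS_apoEV (4 higher, 1 lower) and 5 between the vesicle types (3 higher, 2 lower). Over all genes this held for 32.2% with DDP_apoEV (15.8% higher, 16.4% lower), 43.3% with STS_apoEV (21.6% higher, 21.7% lower) and 47.5% between the vesicle types (24.3% higher, 23.2% lower). The median log2 fold change of the 7 was 0.27, 0.30 and 0.18 in these comparisons, beside −0.003, 0.01 and 0.03 over all genes tested. Both vesicle groups were compared with the same control libraries, so the 2 sets of fold changes are not independent.

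**Figure D1:**
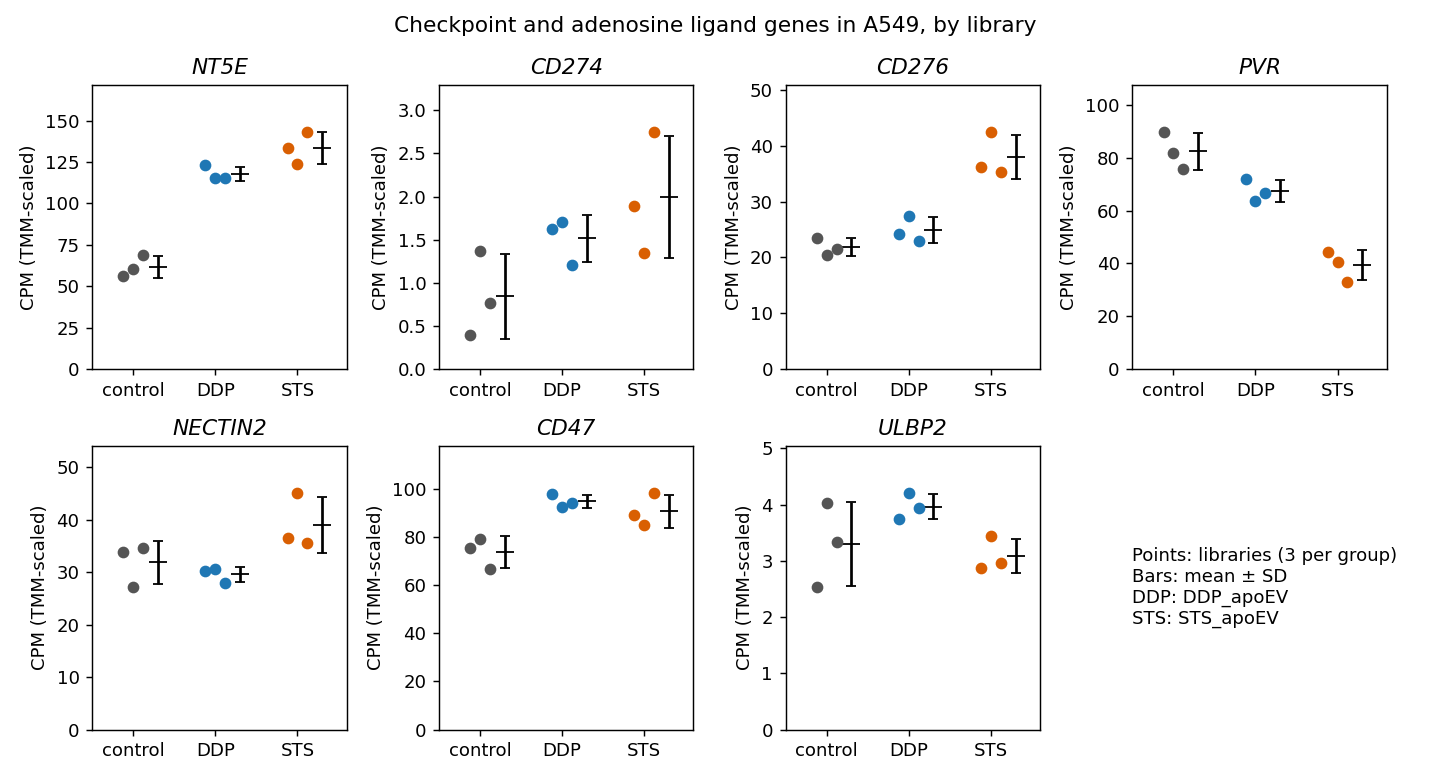
TMM-scaled CPM of the 7 tested members in each library (points; 3 per group) with mean ± SD (bars). The vesicle libraries of NT5E all lie above the control libraries, those of PVR all lie below them, and the libraries of ULBP2 overlap control in both vesicle groups.

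NT5E was the member with the smallest p in both comparisons with control. The gene (ENSG00000135318) lies on chromosome 6 at 85449584 to 85495791, plus strand, in hg38 as deposited. Its level was 55.9, 60.5 and 68.9 CPM in the control libraries, 123, 115 and 116 with DDP_apoEV and 133, 124 and 143 with STS_apoEV. All 6 vesicle libraries lay above all 3 control libraries. NT5E rose 1.91-fold with DDP_apoEV (log2 fold change 0.93, SE 0.0833, edgeR adjusted p = 3.18e-10) and 2.16-fold with STS_apoEV (1.11, SE 0.0834, adjusted p = 1.87e-12). Libraries of the vesicle types did not overlap each other, but the difference between them, 0.18 with an unadjusted 95% interval from 0.01 to 0.34, was not called (adjusted p = 0.0805). It was called with upper-quartile scaling (adjusted p = 0.0378) and without STS_apoEV replicate 2 (adjusted p = 0.0353).

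Of 25 other genes listed for adenosine and nucleotide handling, not all of which act on adenosine itself, 16 were tested. With DDP_apoEV 1 rose and 3 fell, with a median log2 fold change of −0.004, where 15.5% of all genes were called. With STS_apoEV 3 rose and 5 fell, with a median of −0.03, where 32.8% of all genes were called. ENTPD1, which encodes CD39 and supplies the AMP that CD73 uses, had a control mean of 7.74 ± 1.09 CPM, a DDP_apoEV mean of 7.33 ± 0.519 and an STS_apoEV mean of 8.79 ± 1.16 (SD, n = 3 each), and passed in neither comparison (adjusted p = 0.825 and 0.452). ADA, which deaminates adenosine, did not pass either (adjusted p = 0.165 and 0.0758). Both adenosine receptor genes that could be tested fell. ADORA2B, the low-affinity adenosine receptor gene, stood at 44.9, 45.4 and 47.8 CPM in the control libraries, 30.4, 26.0 and 28.8 with DDP_apoEV and 12.2, 12.6 and 14.4 with STS_apoEV. The groups of ADORA2B did not overlap, and it fell by 0.70 on the log2 scale with DDP_apoEV (adjusted p = 2.21e-06) and by 1.81 with STS_apoEV (adjusted p = 3.75e-15). ADORA1 fell by 1.35 (adjusted p = 0.00252) and by 0.79 (adjusted p = 0.0457), from 3.40 CPM in control to means of 1.32 and 1.96. DESeq2 did not call ADORA1 with STS_apoEV (adjusted p = 0.0960) and called 7 genes of the list there in place of 8. The equilibrative nucleoside transporter gene SLC29A1 fell with STS_apoEV by 0.58 (adjusted p = 4.64e-06).

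CD38, an ectoenzyme that consumes NAD and can feed adenosine production, moved in opposite directions with the vesicle types. Its libraries held 18.8, 23.9 and 21.2 CPM in the control libraries, 13.4, 16.6 and 15.5 with DDP_apoEV, and 93.8, 90.5 and 100.2 with STS_apoEV. CD38 fell by 0.48 with DDP_apoEV (adjusted p = 0.00131) and rose 4.46-fold with STS_apoEV (adjusted p = 8.67e-18), and the direct difference between the vesicle types was 2.64 on the log2 scale (adjusted p = 1.12e-19). NT5C3A, a cytosolic nucleotidase gene, rose with STS_apoEV by 0.48 (adjusted p = 0.000142), and AHCY, whose product releases adenosine from S-adenosylhomocysteine, rose with DDP_apoEV by 0.39 (adjusted p = 0.000552).

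**Figure D2:**
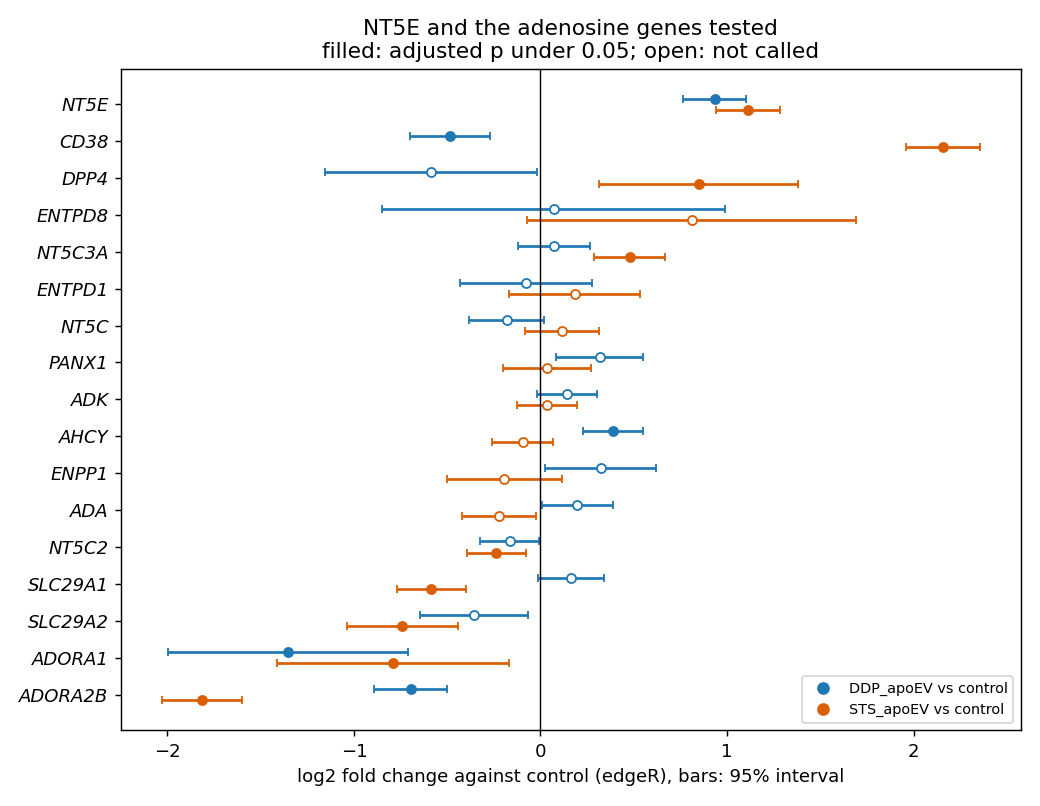
Log2 fold change against control (x axis) with 95% intervals for NT5E and the 16 tested genes of the adenosine list (y axis). DDP_apoEV is in blue and STS_apoEV in orange, and filled points passed the test. NT5E lies to the right of 0 with both vesicle types, ADORA2B and ADORA1 to the left with both, and CD38 on opposite sides.

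Over the 9 libraries, the genes whose centred log2 CPM lay closest to that of NT5E by Euclidean distance were ITGA2, an integrin subunit (distance 0.349), GABRA5, a GABA receptor subunit (0.356), and PLEKHG5 (0.367). ITGA2 went from a mean of 55.3 CPM in control to 110.1 with DDP_apoEV and 115.6 with STS_apoEV. The distance is a description of 9 libraries that share their groups, and carries no test.

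Among the B7-family ligands, CD276 rose with 1 vesicle type and CD274 was near the limit of what the depth could show. CD276 (ENSG00000103855; chromosome 15 at 73683966 to 73714514, plus strand) held 23.6, 20.5 and 21.5 CPM in the control libraries, 24.2, 27.5 and 23.0 with DDP_apoEV and 36.2, 42.4 and 35.3 with STS_apoEV. Control and DDP_apoEV overlapped, and all STS_apoEV libraries lay above both. CD276 rose 1.74-fold with STS_apoEV (log2 fold change 0.80, SE 0.105, adjusted p = 2.74e-07) and was 1.53-fold higher with STS_apoEV than with DDP_apoEV (adjusted p = 1.37e-05). With DDP_apoEV its log2 fold change was 0.19 with a 95% interval from −0.03 to 0.41 (adjusted p = 0.260).

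CD274 (ENSG00000120217; chromosome 9 at 5450503 to 5470566, plus strand) was counted 6, 20 and 11 times in control, 26, 28 and 19 times with DDP_apoEV and 27, 20 and 39 times with STS_apoEV. These are 0.390, 1.37 and 0.763 CPM, then 1.63, 1.71 and 1.21, then 1.89, 1.35 and 2.75. Control replicate 2 overlapped libraries of both vesicle groups. CD274 rose 2.37-fold with STS_apoEV (log2 fold change 1.24, SE 0.417, adjusted p = 0.0202). With DDP_apoEV the log2 fold change was 0.85 with a 95% interval from −0.01 to 1.71 (adjusted p = 0.189), and between the vesicle types 0.39, from −0.39 to 1.18 (adjusted p = 0.450). The rise with STS_apoEV was not called when control replicate 1 (adjusted p = 0.139), control replicate 3 (0.0616) or STS_apoEV replicate 3 (0.139) was left out, nor with DESeq2 (0.0552), and on the log2(FPKM + 1) scale without a filter the change was 0.29 (adjusted p = 0.203). An unnamed gene on the other strand, ENSG00000286162, overlaps CD274 with 98 counts over all libraries against 196 for CD274, and since the library kit is not stated to keep the strand the 2 cannot be told apart where they overlap. ENSG00000286162 itself had log2 fold changes of −0.31 and −0.60 against control (adjusted p = 0.769 and 0.449).

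PDCD1LG2 (ENSG00000197646; chromosome 9 at 5510531 to 5571282, plus strand) was counted 0 times in each control library, 1, 2 and 1 times with DDP_apoEV and once in each STS_apoEV library. In the control libraries a count of 0 allows a level of up to 0.208 CPM (3 counts in control replicate 3, counting error only). No PDCD1LG2 count was above 3 in any library, and no fold change is given. ENSG00000286162, on the other strand, spans all of PDCD1LG2 as well, with 98 counts over all libraries against 7 for PDCD1LG2. The limit on telling strands apart thus covers this whole gene, and its counts and upper level carry it. The genes closest in pattern to CD274 were EFNA3, an ephrin (distance 0.827), AKNAD1 (0.947) and SNAP25, a synaptic vesicle fusion gene (0.992), again as a description. In control EFNA3 averaged 0.724 CPM and AKNAD1 0.408, below CD274 at 0.841, and SNAP25 averaged 5.36. EFNA3 and AKNAD1 were thus as near the limit of the depth as CD274.

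The list of 24 genes known to control PD-L1 had 22 tested members. With DDP_apoEV 1 rose and 3 fell, with a median of −0.02, where 15.5% of all genes were called. With STS_apoEV 5 rose and 7 fell, with a median of 0.06 (11 called by DESeq2), where 32.8% of all genes were called. IFNGR1, a chain of the interferon-gamma receptor, held 59.3, 68.3 and 64.4 CPM in the control libraries, 64.1, 64.5 and 70.6 with DDP_apoEV and 142, 145 and 156 with STS_apoEV. It rose 2.31-fold with STS_apoEV (adjusted p = 1.02e-13) and differed between the vesicle types by 1.15 on the log2 scale (adjusted p = 2.41e-13). STAT2 rose by 0.70 (adjusted p = 1.3e-06) and the interferon-induced factor gene IRF1 by 0.70 (adjusted p = 3.69e-05) with STS_apoEV. JAK1, the kinase of that receptor, fell by 0.53 (adjusted p = 2.12e-06), STAT3 fell by 0.52 (adjusted p = 2.14e-06) and the DNA methyltransferase gene DNMT1 fell by 0.72 (adjusted p = 4.33e-08). CMTM6, which keeps PD-L1 at the surface, did not pass (log2 fold change 0.15, adjusted p = 0.162). With DDP_apoEV STAT3 rose by 0.23 (adjusted p = 0.0301), HIF1A fell by 0.31 (adjusted p = 0.00245), HIP1R, which routes PD-L1 to lysosomes, by 0.47 (adjusted p = 0.00172) and B3GNT3 by 0.46 (adjusted p = 0.00724).

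PVR and NECTIN2, paralogs that share receptors and lie near each other on chromosome 19, went in opposite directions with STS_apoEV. PVR (ENSG00000073008; 44643798 to 44666162, plus strand) stood at 89.8, 81.9 and 75.9 CPM in the control libraries, 72.1, 63.9 and 66.6 with DDP_apoEV and 44.5, 40.7 and 33.0 with STS_apoEV. The 3 groups did not overlap. PVR fell 2.09-fold with STS_apoEV (log2 fold change −1.07, SE 0.0955, adjusted p = 2.03e-10) and was 1.71-fold lower with STS_apoEV than with DDP_apoEV (adjusted p = 8.09e-08). With DDP_apoEV it fell by 0.29 (SE 0.0920, adjusted p = 0.0285). Leaving out 1 library ended this smaller call for control replicates 1 (adjusted p = 0.169) and 2 (0.0616) and for DDP_apoEV replicates 2 (0.121) and 3 (0.0807), and limma on log2(FPKM + 1) did not make it (0.125). Of the 10 alternatives other than leaving out 1 library, 3 did not make it, with adjusted p up to 0.301 among them. CEACAM19, which overlaps the end of PVR on the same strand, had log2 fold changes of −0.20 and −0.07 against control (adjusted p = 0.178 and 0.624), and CEACAM16-AS1, on the other strand, −0.66 and −0.35 (adjusted p = 0.0549 and 0.272).

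NECTIN2 (ENSG00000130202; 44846175 to 44889223, plus strand) stood at 33.9, 27.2 and 34.6 CPM in the control libraries, 30.2, 30.7 and 28.0 with DDP_apoEV and 36.5, 45.1 and 35.5 with STS_apoEV. All STS_apoEV libraries lay above all others, by a small margin. NECTIN2 rose 1.22-fold with STS_apoEV (log2 fold change 0.29, SE 0.105, adjusted p = 0.0312) and was 1.32-fold higher than with DDP_apoEV (adjusted p = 0.00265). The rise against control was not called without control replicate 2, where it was 0.17 (adjusted p = 0.267), without STS_apoEV replicate 2, also 0.17 (0.266), with no filter on low counts (0.0528), with DESeq2 (0.0853) or with limma on log2(FPKM + 1) (0.0978). Of the 10 alternatives other than leaving out 1 library, 5 did not call this rise, with adjusted p up to 0.233 among them. With DDP_apoEV the log2 fold change was −0.11, with a 95% interval from −0.32 to 0.11 (adjusted p = 0.564). Among the other nectins, NECTIN3 fell with STS_apoEV by 0.65 (adjusted p = 2.05e-06) and NECTIN1 did not pass (−0.23, adjusted p = 0.444).

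**Figure D3:**
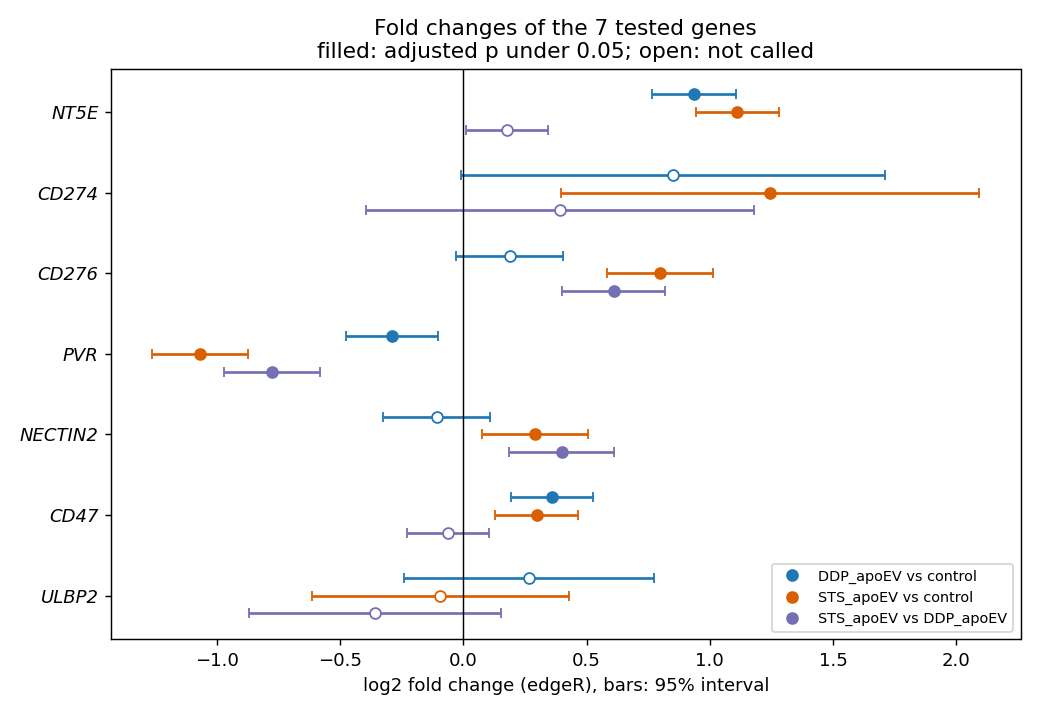
Log2 fold change (x axis) with 95% intervals for the 7 tested members (y axis) in the 3 comparisons; filled points passed the test. PVR at −1.07 and NECTIN2 at 0.29 lie on opposite sides of 0 with STS_apoEV, and the intervals of CD274 are the widest of the 7 genes.

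CD47, the macrophage restraint ligand, rose with both vesicle types by similar amounts. The gene (ENSG00000196776; chromosome 3 at 108043091 to 108091862, minus strand) held 75.5, 79.3 and 66.6 CPM in the control libraries, 97.8, 92.5 and 94.2 with DDP_apoEV and 89.2, 84.9 and 98.3 with STS_apoEV. Vesicle libraries all lay above control libraries, and the vesicle groups overlapped. CD47 rose 1.28-fold with DDP_apoEV (log2 fold change 0.36, SE 0.0820, adjusted p = 0.00192) and 1.23-fold with STS_apoEV (0.30, SE 0.0824, adjusted p = 0.00504). The STS_apoEV call ended when control replicate 3 was left out (adjusted p = 0.0824), and both ended with limma on log2(FPKM + 1) without a filter (0.0626 and 0.0758). Between the vesicle types the log2 difference was −0.06, with a 95% interval from −0.23 to 0.10 (adjusted p = 0.577).

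Of 7 genes around CD47 6 were tested. With DDP_apoEV 1 rose and 1 fell (median 0.05), where 15.5% of all genes were called. With STS_apoEV 3 rose and 2 fell (median 0.18), where 32.8% of all genes were called. QPCTL, the Golgi glutaminyl cyclase that modifies CD47 for SIRPA binding, did not pass against control (log2 fold change −0.18 and 0.18, adjusted p = 0.427 and 0.311). Its secreted relative QPCT rose by 0.24 with DDP_apoEV (adjusted p = 0.0309) and 2.44-fold with STS_apoEV, from 74.6 to 182 CPM (adjusted p = 7.38e-15). SIRPA, the receptor of CD47, fell by 0.38 (adjusted p = 0.0175) and by 0.50 (adjusted p = 0.000747). THBS1, another CD47 ligand, fell 2.64-fold with STS_apoEV, from 18.9 to 7.16 CPM (adjusted p = 8.1e-10). LRP1, an uptake receptor for calreticulin-marked cells, rose 2.68-fold with STS_apoEV, from 8.96 to 24.0 CPM (adjusted p = 7.94e-08).

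Of the NKG2D ligands, ULBP2 could be tested and did not pass. ULBP2 (ENSG00000131015; chromosome 6 at 149942014 to 149949235, plus strand) held 2.54, 4.04 and 3.33 CPM in the control libraries, 3.75, 4.21 and 3.94 with DDP_apoEV and 2.87, 3.44 and 2.96 with STS_apoEV. Control libraries spanned nearly the whole range of the others. The log2 fold change was 0.27 with DDP_apoEV (95% interval −0.24 to 0.77, adjusted p = 0.541) and −0.09 with STS_apoEV (−0.61 to 0.43, adjusted p = 0.823). Changes within those intervals remain compatible with these libraries. The STS_apoEV libraries of ULBP2 all lay below the DDP_apoEV libraries, but this difference was not called (DESeq2 log2 fold change −0.38, adjusted p = 0.377). Related genes of the same cluster did move. RAET1G rose 3.06-fold with STS_apoEV, from 1.04, 1.71 and 1.80 CPM in control to 4.42, 3.98 and 5.56 (adjusted p = 7.49e-05), and RAET1E rose 2.23-fold, from 2.75 to 6.17 CPM (adjusted p = 0.000457). ULBP3 was lower with STS_apoEV than with DDP_apoEV by 1.08 on the log2 scale (adjusted p = 0.000464), ULBP1 passed in none of the comparisons (adjusted p = 0.937, 0.920 and 0.813) and RAET1L was not tested. With DDP_apoEV 0 of these 4 tested relatives were called by edgeR, 1 at an unadjusted p under 0.05, and 0 by DESeq2. Of all genes tested 15.5% were called by edgeR there. ULBP2, RAET1G and RAET1L are close in sequence, and no source used here says how reads that fit more than 1 of them were counted.

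MICA and MICB could not be read from these tables. MICA (ENSG00000204520; chromosome 6 at 31399784 to 31415315, plus strand) was counted 5, 1 and 1 times in control, 0 times in each DDP_apoEV library and 2, 0 and 3 times with STS_apoEV, and MICB (ENSG00000204516; 31494881 to 31511124, plus strand) 0 times in all 9. Their neighbours were almost empty as well. Within 1 Mb of MICA 1 of 102 other protein-coding genes passed the filter (0.980%), against 12810 of 19877 protein-coding genes in all (64.4%), and the same shares hold for MICB. BAG6 and CSNK2B, which nearly all cells express, had 25 and 14 counts over all 9 libraries, and were picked as examples after their values were seen. For the other members between 43.5% (CD276) and 86.4% (PDCD1LG2) of the coding neighbours passed. The tables also hold 76 rows on alternative sequences of the MHC, with 51770 counts. The part of these alternative sequences in the low counts was not tested, and the counts of MICA and MICB are taken here as no measure of expression. The same holds for HLA-E and HLA-G, with 5 and 0 counts.

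**Figure D4:**
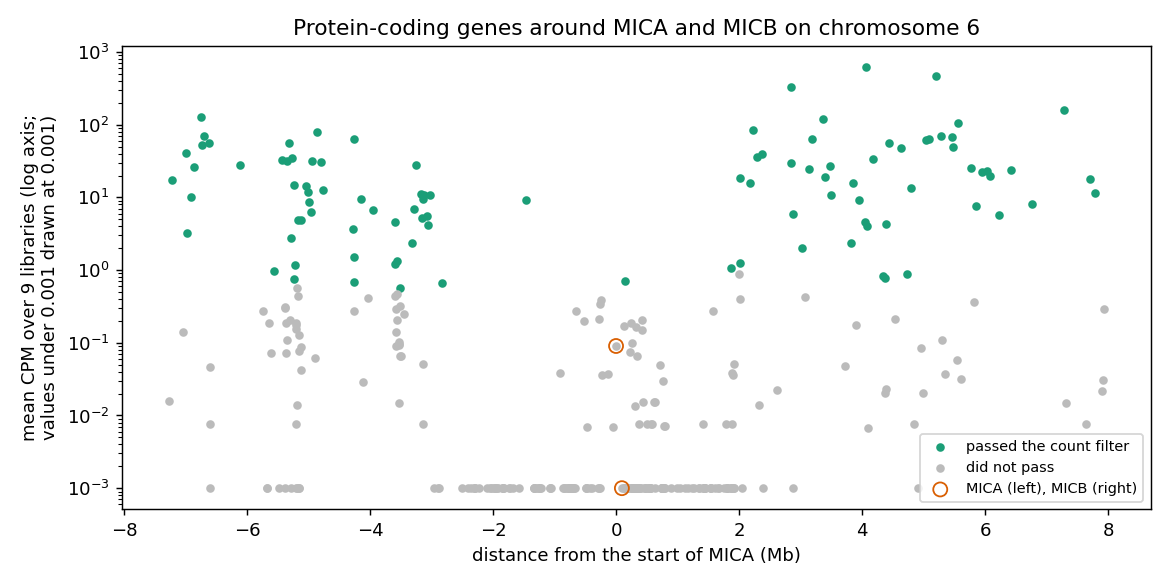
Mean CPM over 9 libraries (y axis, log scale; values under 0.001 drawn at 0.001) of protein-coding genes by distance from the start of MICA in Mb (x axis), with genes that passed the count filter in green. A stretch of several Mb around MICA and MICB holds hardly any gene that passed, with green points again on both sides.

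Of 31 other ligands with a role at immune contacts 18 were tested. With DDP_apoEV 1 rose and 3 fell (median −0.10) and with STS_apoEV 5 rose and 6 fell (median 0.07), where DESeq2 called 5 and 9. Of all genes tested 15.5% and 32.8% were called by edgeR in these comparisons. VSIR, which encodes the T cell inhibitor VISTA, held 22.8, 19.1 and 21.0 CPM in the control libraries, 13.7, 14.4 and 12.3 with DDP_apoEV and 9.05, 9.31 and 9.50 with STS_apoEV. The groups of VSIR did not overlap, and it fell by 0.64 (adjusted p = 0.000304) and by 1.18 (adjusted p = 9.14e-09). CD24, which engages Siglec-10 on macrophages, fell by 0.33 (adjusted p = 0.000619) and by 0.80 (adjusted p = 3.95e-11), from 519 CPM in control to 412 and 297. The T cell costimulator gene TNFSF9 fell by 0.70 (adjusted p = 4.49e-05) and by 0.49 (adjusted p = 0.00119). CD70, the ligand of CD27, fell with STS_apoEV by 0.91 (adjusted p = 1.84e-08), and BTN2A2 rose with DDP_apoEV by 0.69 (adjusted p = 0.000391). VTCN1, the gene of the inhibitory ligand B7-H4, was higher with STS_apoEV than with DDP_apoEV by 2.41 on the log2 scale (adjusted p = 4.71e-05), at 2.24 against 0.418 CPM. ICOSLG, named after its values were seen, rose with STS_apoEV by 2.44 (adjusted p = 2.59e-05), from 0.610 to 3.33 CPM.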

How the data were processed

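RNA from A549 cells was sequenced in 9 libraries. The authors deposited whole-number read counts per gene and FPKM values (per gene length and library size) over 62257 shared rows. Per the submitters' processing notes the tools included HISAT2 2.0.5, StringTie 1.3.3b, featureCounts 1.5.0-p3 and limma with build hg38; the sources used here give neither their settings nor the annotation release. Of 61552 Ensembl IDs 61399 matched a symbol. A further 705 rows had no Ensembl ID and held 0.313% to 0.357% of the counts.

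Sample titles gave the groups and the replicate numbers. Counts were tested with edgeR 4.0.16 in R 4.3.3 (quasi-likelihood, robust, TMM scaling, default filter, all 9 libraries, no covariates), with Benjamini-Hochberg adjustment over 16947 genes and calls at an adjusted p under 0.05. The SE is the log2 fold change divided by the square root of F, and 95% intervals are not adjusted. CPM use TMM-scaled totals. Floors from a count of 0 cover counting error only. The script was tested on simulated counts.

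The members, the 11 further lists, the motifs and the rule for named genes were chosen with earlier results of these data known. The rule took all 10 members, up to 4 called genes of smallest p per list and comparison, fixed partner genes and paralogs, and the 3 genes nearest in pattern to CD274 and NT5E; not every gene it allows is printed. Gene types are from GENCODE v29 and promoter sequences from RefSeq (GRCh38.p14). Alternatives were DESeq2 1.42.0, limma 3.58.1 on log2(FPKM + 1) and log2(FPKM + 0.1), other scalings and filters, a replicate block, fits on 6 libraries (the 2 groups compared) and leaving out single libraries.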

Additional observations from a re-analysis of the deposited data

How the results depend on the processing

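The calls of NT5E against control, of CD276 and PVR with STS_apoEV against either other group and the directions of all called members were the same under every alternative run. Limma on FPKM called fewer genes with DDP_apoEV, where edgeR called 2623: 1624 on log2(FPKM + 1), 1622 on log2(FPKM + 0.1) and 992 on log2(FPKM + 1) with no filter. With no filter it also called 1 member with DDP_apoEV in place of 3, and with STS_apoEV 3617 genes in place of 5552 and 3 members in place of 6. The sign of ULBP2 with STS_apoEV turned without control replicate 2, and over all fits without 1 library its log2 fold change ran from −0.266 to 0.0623; the cause was not tested. NECTIN2 between the vesicle types was not called by limma with no filter (adjusted p = 0.0906). Leaving out each library in turn gave 1841 to 2830 genes called with DDP_apoEV, 4621 to 5638 with STS_apoEV and 5856 to 6753 between the vesicle types, and 2 to 3, 4 to 6 and 3 to 4 members. Same-numbered libraries shared only a number, with correlations of their deviations between −0.0847 and 0.0547 over 9 pairs, and a fit with the replicate block called 2359, 5297 and 6429 genes and 3, 6 and 3 members, changing no call of a member. Depth left CD274 with 6 to 39 counts a library and PDCD1LG2, which was not tested, with 0 to 2.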

Other observations

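Sheddases cut ligands such as MICA, ULBP2 and CD274 from the cell surface. Of 6 genes listed for shedding 5 were tested, and 1 of these, PDIA6, encodes a disulfide isomerase and not a sheddase. With DDP_apoEV 3 fell and 0 rose, with a median log2 fold change of −0.27, where 8.32% of all genes were called lower. With STS_apoEV 2 fell and 0 rose, with a median of −0.37, where 16.8% of all genes were called lower. ADAM10 fell by 0.36 with DDP_apoEV (edgeR adjusted p = 0.000904) and by 0.37 with STS_apoEV (adjusted p = 0.000267), from a mean of 377 CPM in control to 295 and 293. ADAM9 fell by 0.27 (adjusted p = 0.0164) and by 0.37 (adjusted p = 0.000372). The membrane metalloprotease gene MMP14 fell with DDP_apoEV by 0.87 (adjusted p = 0.0281) but was not called by DESeq2 (adjusted p = 0.0569), which called 2 of the list there, and ADAM17, named after its values were seen, passed in neither comparison (adjusted p = 0.636 and 0.335).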
